A study of Drosophila melanogaster with 24 samples.

Results

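The 9 genes described here carry the methionine cycle of the fly and its exits: Sam-S, Gnmt, Sardh, Ahcy, AhcyL1, AhcyL2, Cbs, CG10621 and CG10623. They were named as members of the pathway, with earlier results of these data known, and all 9 were found among the 12126 features in the table of all libraries and passed the filter on low values in every comparison. S-adenosylmethionine (SAM) is made from methionine and ATP by SAM synthetase, the product of Sam-S, and is the donor of methyl groups for most methyltransferases. Each transfer leaves S-adenosylhomocysteine, which Ahcy splits into homocysteine and adenosine. Homocysteine either takes up a methyl group again and returns to methionine, the reaction of homocysteine S-methyltransferases such as the products predicted for CG10621 and CG10623, or is drawn off towards cysteine by cystathionine beta-synthase (Cbs). Gnmt moves the methyl group of SAM onto glycine, which gives sarcosine, and Sardh breaks sarcosine down. In flies, Gnmt acts in the fat body and keeps the level of SAM in check.

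RNA was sequenced from heads and thoraces of once-mated females, 25 flies for each library and 3 libraries to a group, which makes 24 in 8 groups of 1 genotype on 1 diet. Gcn2 mutants, in which a white marker gene stands in the place of the whole Gcn2 open reading frame, were set beside wDah flies, the white Dahomey background into which the mutants were backcrossed. Mutants thus also differ from wDah flies by this marker. Both genotypes were kept for 3 days on 1 of 4 chemically defined diets. These were the complete Yaa diet with the amino acid proportions of yeast, and the same diet without methionine (-M), without arginine (-R) or without any amino acid (-All). GCN2 is a kinase that senses uncharged tRNA. The study's methods name 3 biological replicates, but neither they nor the labels say whether the flies of a group were raised apart. The p-values thus measure the spread between these libraries, which may in part be technical.

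Values are normalized counts, that is reads assigned to a gene divided by a factor for the size of the library. They summed to between 20.9 and 27.5 M per library, and the spacing of low values gave an estimate of 21.0 to 31.7 M assigned reads (median 24.6). Differences were taken on log2(normalized count + 1) and tested with limma over all genes, and a gene is called where its p, adjusted by the Benjamini-Hochberg method over all genes tested, is under 0.05. Gcn2 itself stood at 141 ± 22.3 in the 12 mutant libraries and at 655 ± 38.2 in the 12 wDah libraries (SD), with a log2 difference of -2.22 (permutation test, two-sided, p = 1e-05, which is the smallest that 100000 resamples can give). Genotypes did not overlap, with 106 to 185 in mutants against 597 to 701 in wDah flies. Of the Gcn2 exon bases, 454 of 5743 are shared with PNPase on the other strand, and as no source used here says that reads were assigned by strand, those from there cannot be told apart. All 9 fat body genes, all 7 flight muscle genes and all 9 photoreceptor and nervous system genes that served as markers were listed, as were 7 of 10 gut genes and 7 of 21 ovary genes. None of the 7 male accessory gland genes was among the features. The 7 gut genes summed to 56737 to 79928 in Gcn2 mutants on -R, against 121381 to 293554 in the other 7 groups. Flight muscle genes summed to 107230 to 135674 in mutants on -R, against 137123 to 229436 in the other groups. Photoreceptor and nervous system genes summed to 195418 to 219457 there, against 223385 to 337224. Fat body and ovary sums of mutants on -R were not below those of all other groups. The part of these marker levels in the values of mutants on -R was not tested. In bulk RNA, fewer cells of a type and less RNA per cell cannot be told apart.

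Ovary RNA was uneven between replicates of a group, and in wDah flies it was higher on -All than on Yaa. Ovaries lie in the abdomen, which the labels do not name as part of the samples. The 7 ovary genes, of which Cp7Fa, Cp7Fb and Cp18 code for eggshell proteins, summed to 5812 in Gcn2 Yaa replicate 2, against 108 and 101 in the other Gcn2 Yaa libraries. In Gcn2 -R replicate 1 they summed to 3583, in Gcn2 -M replicate 2 to 1165, in wDah -M replicate 1 to 1072 and in wDah -All replicate 1 to 3039. The other libraries on -M and -R held 68.8 to 181, and wDah -All replicates 2 and 3 held 393 and 1328. The wDah Yaa libraries held 51.7 to 133, so every wDah -All library was above them, also without replicate 1. Gcn2 -All libraries held 134 to 540. The 5 named libraries, in which the mean log2 level of the ovary genes was at least 1.73 above that of the other replicates, are called ovary-rich below. Calls that change without them are given both ways.

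The -M and -R groups did not line up between the genotypes by their labels. Over the 10994 genes with a mean count of at least 10, the difference of -M from -R in Gcn2 mutants ran against that in wDah flies (Pearson r = -0.24, Spearman rho = -0.38, across genes, which are not independent replicates). Of 819 genes that differed between -M and -R in both genotypes, 688 did so in opposite directions (84.0%). The 819 genes were 20.5% of the genes called in Gcn2 mutants and 51.9% of those called in wDah flies. The response of Gcn2 mutants to -M correlated at r = 0.55 with the response of wDah flies to -R and at r = 0.34 with their response to -M. For the mutants on -R these values were 0.25 with wDah flies on -R and 0.31 with wDah flies on -M. For the mutants on -All they were 0.51 with wDah flies on -R, 0.45 with wDah flies on -All and 0.33 with wDah flies on -M. By Spearman rho, mutants on -M had 0.58 with wDah flies on -R and 0.31 with wDah flies on -M. Mutants on -R had a rho of 0.27 with wDah flies on -R and 0.45 with wDah flies on -M. For mutants on -All rho was 0.53 with wDah flies on -R, 0.51 on -All and 0.27 on -M. No library was shared within any of these pairs of comparisons. MsrA, a methionine sulfoxide reductase, had 9104, 10192 and 10071 counts in Gcn2 -M and 1932, 2330.5 and 2432 in Gcn2 -R libraries. In wDah flies it had 1077, 1033 and 1054 on -M and 9435, 10175 and 9256 on -R. Titles, characteristics and column names gave the same diet for each library, and all groups are used here as labelled. An opposite response of the genotypes and an exchange of the -M and -R labels in 1 genotype cannot be told apart from these values. Every statement below on -M or -R, within a genotype as well as between genotypes, depends on these labels, and what concerns only Yaa and -All does not.

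**Figure D1:**
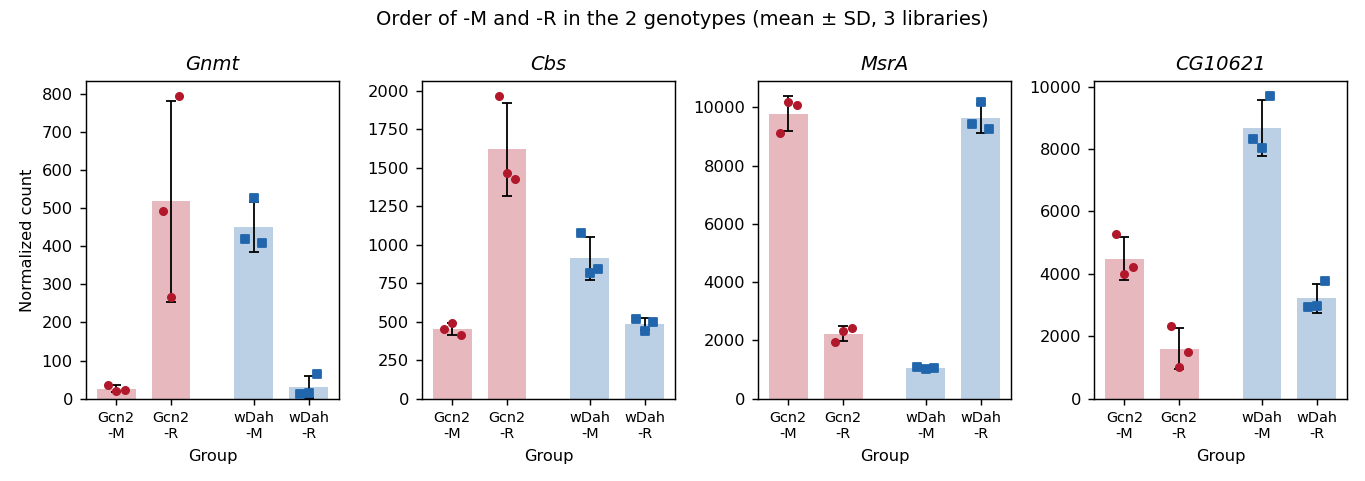
Normalized counts on -M and -R in Gcn2 mutants (red, left) and wDah flies (blue, right), with bars at the mean, error bars of 1 SD and points for the 3 libraries of each group. Gnmt and Cbs were lower on -M than on -R in Gcn2 mutants and higher in wDah flies, MsrA had the opposite order in each genotype, and CG10621 was higher on -M in both.

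Measured per length, CG10621 and Sam-S were the most abundant of the 9 transcripts, with means of 164 and 158 FPKM (reads scaled to the length of the transcript and the size of the library) over all 24 libraries. Ahcy averaged 60.3 FPKM, CG10623 27.9, Gnmt 23.0, Cbs 20.4, AhcyL1 19.9, AhcyL2 10.2 and Sardh 8.32. The mean of CG10621 hides its range, since on Yaa it stood at 19.6 ± 2.18 FPKM in Gcn2 mutants and 27.4 ± 4.01 FPKM in wDah flies (SD, n = 3 each). On the same diet Sam-S held 149 ± 12.1 FPKM in mutants and 148 ± 2.81 FPKM in wDah flies. Between the lowest and the highest of the 8 group means, counts of Gnmt differed 57.6-fold, of CG10621 16.4-fold and of Sardh 12.8-fold. Cbs followed with 3.60-fold, Ahcy with 2.52-fold and Sam-S with 1.89-fold, and CG10623, AhcyL2 and AhcyL1 stayed at 1.56-fold, 1.53-fold and 1.22-fold. The genes that varied most between groups were thus both genes of the sarcosine step and 1 of the 2 predicted homocysteine methyltransferases.

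**Figure D2:**
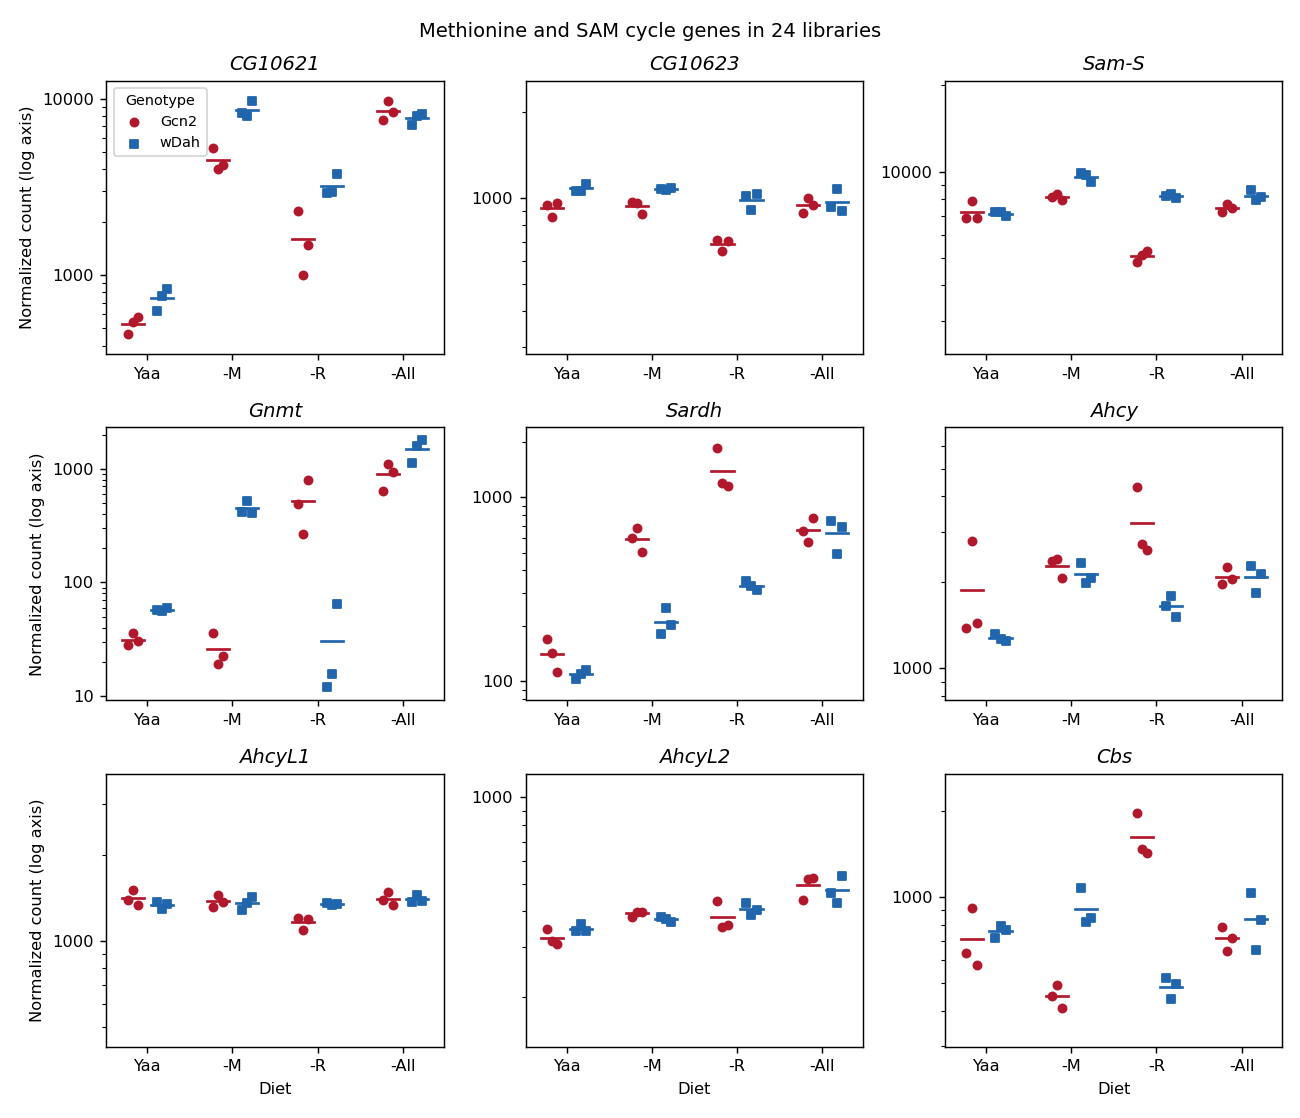
Normalized count of each of the 9 genes (log axes, with a different range for each gene) by diet, with Gcn2 mutants as red circles to the left and wDah flies as blue squares to the right, 3 libraries and their mean for each group. CG10621 was above its Yaa level on every deprived diet in both genotypes, whereas Gnmt was high in Gcn2 mutants on -R and -All and in wDah flies on -M and -All.

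The predicted homocysteine methyltransferase CG10621 rose on every deprived diet in both genotypes, and every library on -M and -All was above every library of its genotype on -R. CG10621 (FBgn0032726) lies on 2L from 18952206 to 18954431 on the minus strand in the BDGP6.54 annotation. On Yaa it had 466, 543 and 582 in Gcn2 mutants, against 625, 759 and 839.9 in wDah flies. On -M its counts were 5271, 3979.6 and 4210.3 in Gcn2 mutants, against 8316, 8032 and 9698 in wDah flies. All -M libraries thus lay far above all Yaa libraries, and mutants and wDah flies did not overlap on either diet. On -R the values were 2322, 1008 and 1481 in Gcn2 mutants, against 2929, 2956 and 3758 in wDah flies. On -All they reached 7596, 9667 and 8442 in Gcn2 mutants, against 7079, 7994 and 8196 in wDah flies, and here alone the genotypes overlapped. Means were 8.46-fold the Yaa mean in mutants on -M and 11.7-fold in wDah flies, with log2 differences of 3.07 ± 0.13 (SE, adjusted p = 4.31e-05) in mutants and 3.55 ± 0.11 (SE, adjusted p = 9.21e-07) in wDah flies. The rise on -R was 1.52 ± 0.30 (SE, adjusted p = 0.0145) in mutants and 2.12 ± 0.12 (SE, adjusted p = 1.25e-05) in wDah flies. On -All it was 4.01 ± 0.12 (SE, adjusted p = 8.71e-06) in mutants and 3.39 ± 0.11 (SE, adjusted p = 1.60e-06) in wDah flies. The call on -R in mutants was lost without Gcn2 Yaa replicate 1 or Gcn2 -R replicate 3 (adjusted p = 0.0518 to 0.0638).

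On -M, CG10621 stood at 0.517 of its wDah level in Gcn2 mutants, and on -R at 0.499 of it. The log2 difference of mutants from wDah flies was -0.96 (adjusted p = 0.000675) on -M and -1.08 (adjusted p = 0.0264) on -R. The call on -R was lost without any 1 of the 3 wDah -R libraries or Gcn2 -R replicate 3 (adjusted p = 0.0631 to 0.0912). On Yaa it was -0.48 (adjusted p = 0.145) and on -All 0.14 (adjusted p = 0.642). None of the 3 interactions was called. The response of mutants minus that of wDah flies was -0.48 (adjusted p = 0.171) on -M, -0.60 (adjusted p = 0.249) on -R and 0.62 (adjusted p = 0.225) on -All, with 95% intervals of -0.90 to -0.062, -1.38 to 0.18 and 0.23 to 1.00. Without Gcn2 -R replicate 1, which is ovary-rich, the interaction on -R was -0.91 (adjusted p = 0.0215). With the replicate number as a block that on -All was called (0.62, adjusted p = 0.0284).

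Its neighbour CG10623 (FBgn0032727, named Bhmt in BDGP6.54) lies on the same strand from 18955481 to 18957311 and codes for a protein of the same family, but its group means stayed within a 1.56-fold range. Reads that match both genes would have been divided between them by kallisto, and over 24 libraries the log2 levels of both correlated at r = 0.21. On Yaa CG10623 had 943, 858 and 961 in Gcn2 mutants, against 1058, 1055 and 1115 in wDah flies. It held 969, 955 and 876 in Gcn2 mutants, against 1076, 1067 and 1081 in wDah flies on -M. On -R the counts were 711, 651 and 706 in Gcn2 mutants, against 1017, 906 and 1031 in wDah flies. The mutants on -R lay below every other library. On -All it had 880.0, 1001 and 945 in Gcn2 mutants, against 928, 1068 and 895 in wDah flies. It fell on -R in Gcn2 mutants, with a log2 difference of -0.42 ± 0.098 (SE, adjusted p = 0.0283), a call lost without 1 of 4 libraries (Gcn2 Yaa replicate 1 or 3, Gcn2 -R replicate 2 or 3, adjusted p = 0.0791 to 0.13). In wDah flies the -R difference was -0.13 (adjusted p = 0.137), and differences on -M were 0.02 (adjusted p = 0.903) in mutants and -0.0014 (adjusted p = 0.983) in wDah flies. On -All they were 0.032 (adjusted p = 0.839) in mutants and -0.16 (adjusted p = 0.115) in wDah flies, where leaving out wDah -All replicate 2 gave -0.24 (adjusted p = 0.0113).

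SAM synthetase moved within a narrow range. Sam-S (FBgn0005278, 2L, 106903 to 114432, plus strand) rose on -M, -R and -All in wDah flies and fell on -R in Gcn2 mutants. On Yaa it had 6861, 7874 and 6869 in Gcn2 mutants, against 7205, 7205 and 6970.0 in wDah flies, and the genotypes overlapped. On -M there were 8158, 8317 and 7972 in Gcn2 mutants, against 9911, 9698 and 9214 in wDah flies, so that each library was above every Yaa library of its own genotype. On -R the counts were 4819, 5128 and 5287 in Gcn2 mutants, against 8231, 8357 and 8106 in wDah flies, the lowest and the third highest of the group means. On -All they were 7199.7, 7695 and 7478 in Gcn2 mutants, against 8633, 7937 and 8156 in wDah flies. In wDah flies the log2 difference from Yaa was 0.43 ± 0.039 (SE, adjusted p = 0.000195) on -M. It was 0.21 (adjusted p = 0.00181) on -R and 0.21 (adjusted p = 0.00768) on -All in wDah flies, but with all library sums set equal the -R call was lost (0.061, adjusted p = 0.133) and the -All value turned to -0.075, and with the ovary score as a covariate the -All call was lost (0.13, adjusted p = 0.218). In mutants it was 0.18 (adjusted p = 0.18) on -M, -0.50 ± 0.097 (SE, adjusted p = 0.0137) on -R and 0.053 (adjusted p = 0.694) on -All. The fall on -R in mutants missed the threshold without Gcn2 Yaa replicate 1 or 3 or Gcn2 -R replicate 2 (adjusted p = 0.0505 to 0.0575). Without Gcn2 Yaa replicate 2 the -M difference in mutants was 0.25 (adjusted p = 0.00947).

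Gnmt, which spends SAM on glycine, showed the widest changes of all 9 genes and the sharpest contrast between genotypes. It rose on -All in both genotypes, on -M in wDah flies and on -R in Gcn2 mutants. Gnmt (FBgn0038074) lies on 3R from 12674608 to 12676084 on the plus strand, and 75 of its 990 exon bases are shared with CG43630 on the other strand. On Yaa it had 28.2, 35.5 and 30.4 in Gcn2 mutants, against 57.7, 55.6 and 59.6 in wDah flies, without overlap. On -M the counts were 36.2, 19.3 and 22.4 in Gcn2 mutants, against 419, 526 and 409 in wDah flies. On -R they were 493, 267 and 794 in Gcn2 mutants, against 11.9, 15.7 and 64.9 in wDah flies. Mutant libraries on -M overlapped with Yaa, and on -R 2 of the 3 wDah libraries lay below and 1 above every Yaa library, while mutants on -R and wDah flies on -M were above Yaa in every library. On -All the counts were 634, 1103 and 946 in Gcn2 mutants, against 1125, 1582 and 1782 in wDah flies. The log2 difference on -All was 4.76 ± 0.22 (SE, adjusted p = 4.30e-05) in mutants and 4.65 ± 0.16 (SE, adjusted p = 1.99e-06) in wDah flies, or 28.5-fold and 26.0-fold between means. On -M it was -0.31 ± 0.30 (SE, adjusted p = 0.583) in mutants and 2.94 ± 0.11 (SE, adjusted p = 2.48e-06) in wDah flies (7.83-fold between wDah means). On -R it was 3.87 ± 0.39 (SE, adjusted p = 0.00107) in mutants, 16.5-fold, and -1.28 ± 0.54 (SE, adjusted p = 0.125) in wDah flies. Without wDah -R replicate 3, the library with 64.9 counts, the difference in wDah flies on -R was -2.00 (adjusted p = 0.00113).

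The difference between genotypes in the response of Gnmt was called on -M (-3.25 ± 0.30 SE, adjusted p = 6.90e-05, Gcn2 minus wDah) and on -R (5.15 ± 0.77 SE, adjusted p = 0.000764), in opposite directions, and not on -All (0.11, adjusted p = 0.887, 95% interval -0.53 to 0.75). Both calls held in every setting tried. Without the 5 ovary-rich libraries they were -3.03 (adjusted p = 0.000301) on -M and 5.21 (adjusted p = 0.000695) on -R. Set side by side, the level of Gnmt in mutants was 0.0576 of that in wDah flies on -M and 16.8 times as high on -R (log2 difference -4.11, adjusted p = 1.68e-05 and 4.29, adjusted p = 0.00352). The value on -R rests on the low wDah counts, and without wDah -R replicate 3 the log2 difference was 5.01, and that of the interaction on -R 5.87. The fat body markers moved in another order. They summed to between 1780982 and 1989511 in Gcn2 mutants on -M and between 605946 and 930803 on -R. In wDah flies they summed to between 675384 and 730637 on -M and between 1368378 and 1521308 on -R. Of -M and -R, the diet with the higher fat body sum had the lower count of Gnmt in both genotypes. On -All, where Gnmt was highest, the sums were 3098581 to 3923902 in mutants and 3090950 to 3514819 in wDah flies, against 548925 to 553233 in mutants and 445767 to 524568 in wDah flies on Yaa. The part of fat body RNA in the changes of Gnmt was not tested.

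Sardh, the sarcosine dehydrogenase that follows Gnmt, rose on all 3 deprived diets in both genotypes. Sardh (FBgn0034276) lies on 2R from 17753555 to 17756422 on the minus strand. On Yaa it had 169, 143 and 112 in Gcn2 mutants, against 102, 109 and 116 in wDah flies. On -M there were 597, 679.5 and 502 in Gcn2 mutants, against 181, 249 and 202 in wDah flies. On -R the counts were 1837, 1194 and 1146 in Gcn2 mutants, against 352, 328 and 314 in wDah flies. No library on -M or -R overlapped with Yaa, and mutants lay above wDah flies on both diets. On -All the counts were 654, 569 and 766 in Gcn2 mutants, against 740.3, 491 and 692 in wDah flies, with overlap of the genotypes. On -M the mean was 4.19-fold that on Yaa in mutants and 1.93-fold in wDah flies, with log2 differences of 2.07 ± 0.18 (SE, adjusted p = 0.000653) in mutants and 0.93 ± 0.13 (SE, adjusted p = 0.00155) in wDah flies. On -R it was 3.27 ± 0.24 (SE, adjusted p = 0.000289) in mutants and 1.59 ± 0.083 (SE, adjusted p = 6.42e-06) in wDah flies. On -All it was 2.23 ± 0.18 (SE, adjusted p = 0.000293) in mutants and 2.52 ± 0.15 (SE, adjusted p = 2.20e-05) in wDah flies. The response of mutants exceeded that of wDah flies by 1.14 ± 0.24 (SE, adjusted p = 0.0139) on -M and by 1.68 ± 0.26 (SE, adjusted p = 0.00105) on -R, and on -All the difference was -0.29 (adjusted p = 0.642). Unlike Gnmt, Sardh was higher on -R than on -M in both genotypes, so that Gnmt and Sardh, which act in sequence, kept the same order of both diets in mutants and the opposite order in wDah flies.

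Ahcy, the hydrolase that clears S-adenosylhomocysteine, rose on all 3 deprived diets in wDah flies. Ahcy (FBgn0014455, X, 15450261 to 15453167, plus strand) had 1388, 2800.4 and 1439 in Gcn2 mutants, against 1315, 1263 and 1247 in wDah flies on Yaa. On -M it had 2368, 2422 and 2079 in Gcn2 mutants, against 2343, 1985 and 2069 in wDah flies. On -R there were 4317, 2735 and 2591 in Gcn2 mutants, against 1659, 1787 and 1512 in wDah flies, and on -All 1974, 2259 and 2054 in Gcn2 mutants, against 2275, 1831 and 2140.2 in wDah flies. In mutants 1 library stood out on Yaa and 1 on -R, and both are ovary-rich. In wDah flies the log2 difference from Yaa was 0.74 ± 0.062 (SE, adjusted p = 0.000129) on -M, 0.37 ± 0.06 (SE, adjusted p = 0.00303) on -R and 0.70 ± 0.079 (SE, adjusted p = 0.000475) on -All. In a single fit of all 24 libraries the call on -R was lost (0.37, adjusted p = 0.339), where 9.84% of all genes were called in place of 22.8%. The wDah call on -All was kept in all 14 alternative settings (0.42 to 0.79), but ovary genes were also higher on -All than on Yaa in wDah flies. In mutants the log2 difference from Yaa was 0.36 ± 0.26 (SE, adjusted p = 0.455) on -M, 0.82 ± 0.33 (SE, adjusted p = 0.122) on -R and 0.24 ± 0.26 (SE, adjusted p = 0.591) on -All, and none was called. Without Gcn2 Yaa replicate 2 all 3 were called, at 0.69 (adjusted p = 0.00062) on -M, 1.15 (adjusted p = 0.0226) on -R and 0.57 (adjusted p = 0.0017) on -All. The interaction on -R, 0.45 (adjusted p = 0.401) in all libraries, was 0.54 (adjusted p = 0.000662) without the 5 ovary-rich libraries. In mutants on -R, Ahcy was higher than in wDah flies on the same diet, by 0.92 ± 0.20 (SE, adjusted p = 0.0116).

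The Ahcy-like proteins resemble the hydrolase and are thought to hold it back in flies. AhcyL1 (FBgn0035371, 3L, 2768466 to 2772325, minus strand) was the steadiest of the 9 genes. On Yaa it had 1389, 1502 and 1339 in Gcn2 mutants, against 1368, 1292 and 1349 in wDah flies. On -M there were 1312, 1447 and 1365 in Gcn2 mutants, against 1283, 1361 and 1421 in wDah flies. The -R counts were 1197, 1087 and 1193 in Gcn2 mutants, against 1359, 1329.9 and 1345 in wDah flies, and only these groups did not overlap between genotypes. On -All it had 1386, 1485 and 1328 in Gcn2 mutants, against 1362, 1448 and 1379 in wDah flies. No difference from Yaa was called in either genotype. The furthest was -0.28 (adjusted p = 0.0826) in mutants on -R, and without the 5 ovary-rich libraries it was -0.26 (adjusted p = 0.0155). The interaction on -R was called at -0.29 (adjusted p = 0.0465), but missed the threshold without any 1 of 8 of the 12 libraries (adjusted p = 0.0774 to 0.116) and with all library sums set equal (-0.22, adjusted p = 0.197).

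AhcyL2 (FBgn0015011, 3R, 16978439 to 16982158, minus strand) rose on -All in both genotypes and on -R in wDah flies. It had 347, 316 and 306 in Gcn2 mutants, against 340.4, 361 and 340.1 in wDah flies on Yaa. On -M its counts were 382, 399 and 398 in Gcn2 mutants, against 383, 376 and 368 in wDah flies. On -R they were 433, 352 and 358 in Gcn2 mutants, against 428, 389 and 404 in wDah flies. In both genotypes every deprived library exceeded every Yaa library, by a small margin. On -All there were 438, 521 and 521 in Gcn2 mutants, against 463, 428 and 530.1 in wDah flies. The log2 difference on -All was 0.61 ± 0.11 (SE, adjusted p = 0.0116) in mutants and 0.44 ± 0.086 (SE, adjusted p = 0.00616) in wDah flies, and with all library sums set equal it was 0.28 (adjusted p = 0.0601) in mutants and 0.16 (adjusted p = 0.121) in wDah flies. The mutant call on -All was also lost without Gcn2 -All replicate 2 or 3 (adjusted p = 0.0542 to 0.0654). The wDah call on -All was lost with the ovary score as a covariate (0.45, adjusted p = 0.0945). The wDah difference on -R of 0.23 (adjusted p = 0.028) missed the threshold without wDah Yaa replicate 1 or 3 or wDah -R replicate 1 or 3 (adjusted p = 0.0646 to 0.0906), with all library sums set equal (0.082, adjusted p = 0.279) and in a single fit of all 24 libraries (0.23, adjusted p = 0.138). On -M the difference was 0.28 (adjusted p = 0.0937) in mutants and 0.12 (adjusted p = 0.173) in wDah flies, and on -R in mutants 0.23 (adjusted p = 0.224).

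Cbs, which takes homocysteine out of the cycle towards cysteine, rose on -R in Gcn2 mutants and fell on -R in wDah flies. Cbs (FBgn0031148, X, 21045138 to 21049096, plus strand) had 637, 915 and 579.8 in Gcn2 mutants, against 720.5, 790.4 and 767 in wDah flies on Yaa. On -M there were 451, 491 and 410.0 in Gcn2 mutants, against 1074, 815 and 842 in wDah flies. On -R the counts were 1965, 1468 and 1425 in Gcn2 mutants, against 519, 439 and 496 in wDah flies. Every mutant library on -R was above every other library, and mutants on -M overlapped with wDah flies on -R below all Yaa libraries. On -All the counts were 782, 648 and 721 in Gcn2 mutants, against 1032, 652 and 828 in wDah flies, and genotypes overlapped. The log2 difference on -R was 1.20 ± 0.21 (SE, adjusted p = 0.0102) in mutants, 2.28-fold between means, and -0.65 ± 0.07 (SE, adjusted p = 0.000364) in wDah flies. On -M it was -0.63 ± 0.18 (SE, adjusted p = 0.0733) in mutants and 0.25 ± 0.10 (SE, adjusted p = 0.0994) in wDah flies, neither of them called. With the replicate number as a block the mutant difference on -M was called (-0.63, adjusted p = 0.0312), as it was without Gcn2 Yaa replicate 2 (-0.44, adjusted p = 0.0138). On -All it was 0.038 (adjusted p = 0.914) in mutants and 0.12 (adjusted p = 0.577) in wDah flies. The interaction was 1.85 ± 0.24 (SE, adjusted p = 0.000288) on -R and -0.88 ± 0.22 (SE, adjusted p = 0.0361) on -M. The second of these missed the threshold without any 1 of 7 of the 12 libraries (adjusted p = 0.0571 to 0.0905, all in the same direction), and was -0.63 (adjusted p = 0.00415) without the 5 ovary-rich libraries.

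**Figure D3:**
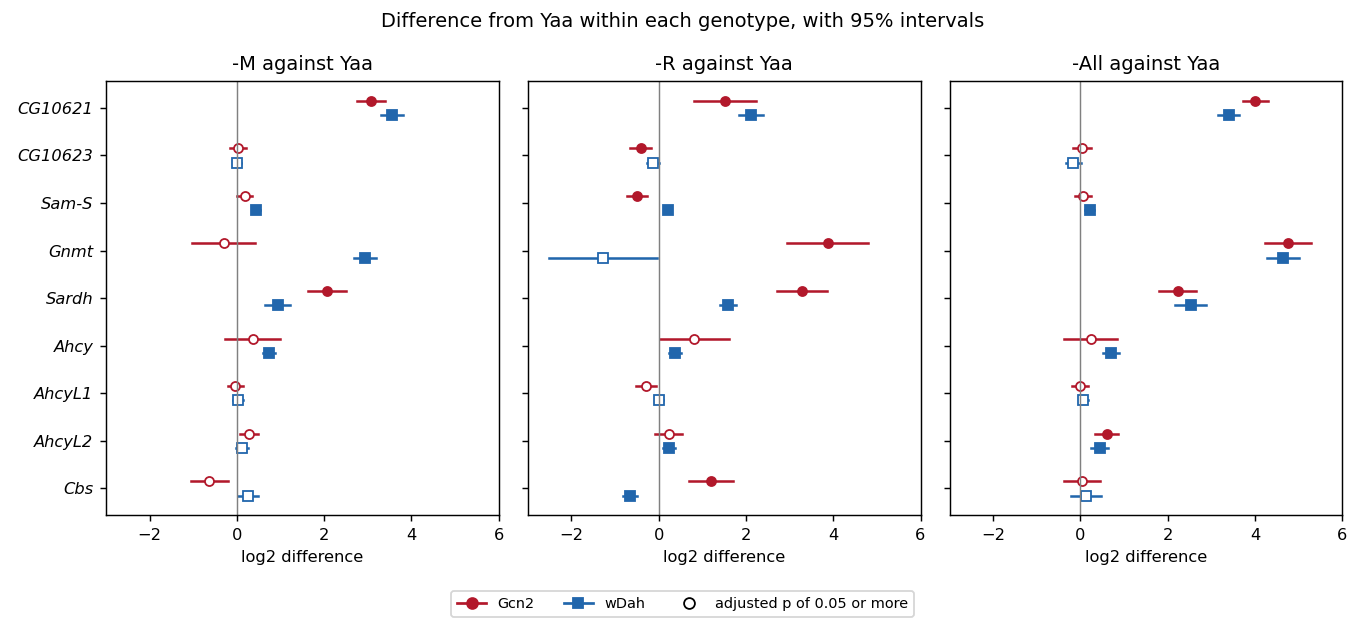
Log2 difference of each deprived diet from Yaa with its 95% interval from limma, for the 9 genes in Gcn2 mutants (red circles, above) and wDah flies (blue squares, below), on log2(normalized count + 1). Filled symbols passed an adjusted p of 0.05. CG10621 and Sardh were filled and above 0 on all 3 diets in both genotypes. Gnmt lay on opposite sides of 0 in the 2 genotypes on -M and on -R. Its values below 0, in mutants on -M and in wDah flies on -R, were not called.

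The number of the 9 genes called on each diet is set here beside the share of all genes tested. In mutants both were lowest on -M and highest on -R, and in wDah flies the number hardly differed between diets. Because the Yaa libraries of a genotype serve all 3 of its diet comparisons, these counts are not independent of each other. On -M, 2 of 9 genes rose in Gcn2 mutants, CG10621 and Sardh, and none fell, where 11.0% of all genes tested were called (8.55% higher and 2.49% lower). In wDah flies 5 rose on -M, CG10621, Gnmt, Sardh, Ahcy and Sam-S, and none fell, beside 25.7% of all genes (15.3% higher and 10.4% lower). On -R, 4 rose and 2 fell in mutants, beside 21.9% of all genes (17.3% higher and 4.60% lower). In wDah flies on -R, 5 rose and 1 fell, beside 22.8% (13.8% higher and 8.98% lower). On -All, 4 rose and none fell in mutants, beside 14.1% (10.6% higher and 3.54% lower). Leaving out Gcn2 Yaa replicate 2 gave 6 calls in mutants on -M in place of 2, beside 23.2% of all genes, and leaving out Gcn2 Yaa replicate 1 gave 3 on -R in place of 6, beside 10.9%. In wDah flies on -All, 6 rose and none fell, beside 35.4% (19.7% higher and 15.7% lower). The median log2 difference of the 9 genes was 0.18 on -M, 0.82 on -R and 0.24 on -All in mutants, against -0.05, -0.03 and -0.05 for all genes. In wDah flies it was 0.43, 0.21 and 0.44, against 0.01, -0.01 and -0.02 for all genes. Setting all library sums equal moved the median of all genes to between -0.37 and 0.10 over the 15 comparisons, against -0.05 to 0.02. With it, 3 of the 9 genes were called higher and 3 lower in mutants on -All, 3 higher and 3 lower in wDah flies on -R, 4 higher and 2 lower in wDah flies on -All, and 2 higher and 1 lower in mutants on -M. On the other diet comparisons it left the split of these 9 as above.

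A direct comparison of -M with -R asks whether the lack of methionine differs from the lack of another essential amino acid. In Gcn2 mutants 3 of the 9 genes were higher and 3 lower on -M than on -R, beside 36.8% of all genes called (13.1% higher and 23.7% lower). In wDah flies 5 were higher and 1 lower, beside 14.5% (7.70% higher and 6.77% lower). CG10621 was higher on -M in both genotypes, by 1.56 ± 0.30 (SE, adjusted p = 0.00836) in mutants and 1.44 ± 0.11 (SE, adjusted p = 0.00029) in wDah flies. Sam-S was also higher on -M in both, by 0.68 (adjusted p = 0.000742) in mutants and 0.22 (adjusted p = 0.0113) in wDah flies, and Sardh was lower on -M in both, at -1.21 (adjusted p = 0.00564) in mutants and -0.66 (adjusted p = 0.00967) in wDah flies. Gnmt was lower on -M in mutants (-4.18, adjusted p = 0.000691) and higher on -M in wDah flies (4.21, adjusted p = 0.00244). Cbs had the same pattern, with -1.83 (adjusted p = 0.000278) in mutants and 0.90 (adjusted p = 0.00221) in wDah flies. The 9 genes are therefore split, with 3 that kept 1 order of the diets in both genotypes and 2 that had opposite orders. Ahcy was higher on -M in wDah flies (0.37, adjusted p = 0.0192), a call that was lost without wDah -R replicate 1 or 3 (adjusted p = 0.0553 to 0.0616) and in a single fit of all 24 libraries (0.37, adjusted p = 0.377), and CG10623 was higher on -M in mutants (0.44, adjusted p = 0.00704).

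**Figure D4:**
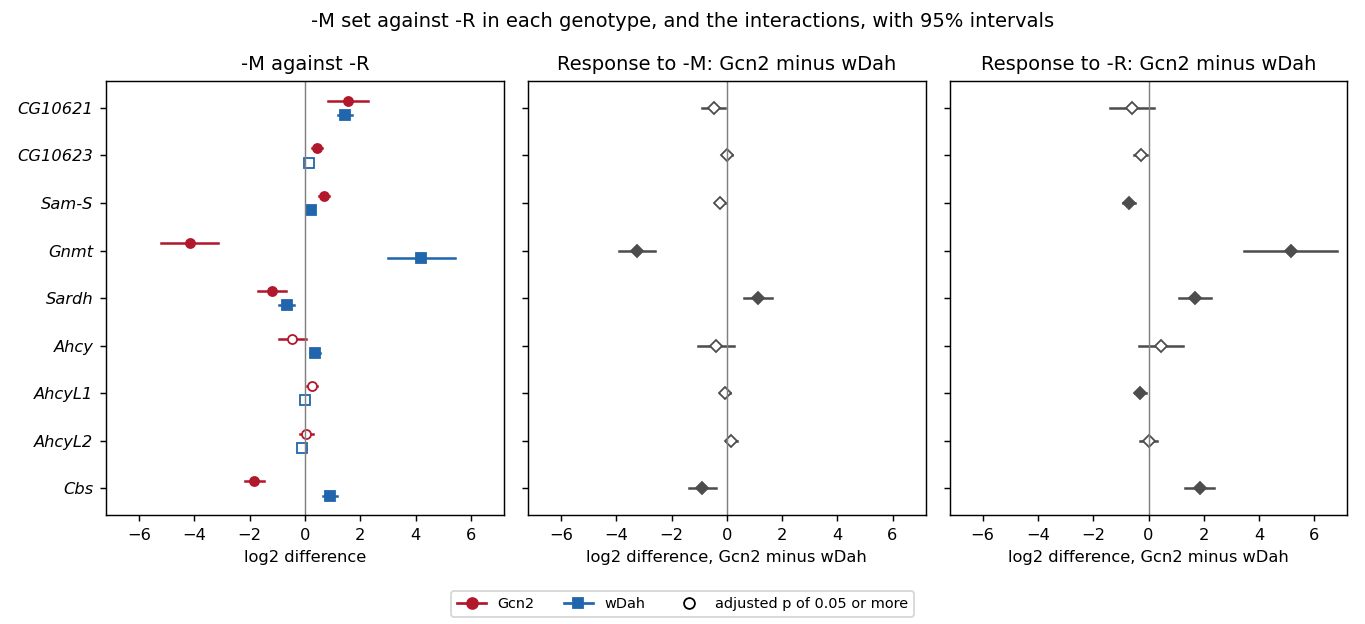
Left, log2 difference of -M from -R in Gcn2 mutants (red circles, above) and wDah flies (blue squares, below). Centre and right, the response of Gcn2 mutants minus that of wDah flies (grey diamonds) on -M and on -R. Lines are 95% intervals and filled symbols passed an adjusted p of 0.05. Gnmt and Cbs lay below 0 in mutants and above 0 in wDah flies, and their interactions were negative on -M and positive on -R.

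The comparison of genotypes on a given diet asks what the loss of Gcn2 changed. On Yaa none of the 9 genes was called, beside 2.69% of all genes (1.38% higher and 1.31% lower in mutants), and on -All none was called, beside 1.07% (0.560% higher and 0.514% lower). At an unadjusted p under 0.05 there were 3 of 9 on Yaa and 2 of 9 on -All by limma, beside 17.6% and 12.2% of all genes. On -M, 1 was higher and 5 lower in mutants than in wDah flies, beside 23.1% of all genes (12.2% higher and 10.9% lower). On -R 4 were higher and 4 lower, beside 45.8% (27.7% higher and 18.2% lower). On Yaa the furthest difference was that of Gnmt (-0.86, adjusted p = 0.0669), and leaving out Gcn2 Yaa replicate 2 gave 3 calls, beside 11.8% of all genes, Gnmt (-0.95, adjusted p = 0.0121), Cbs (-0.32, adjusted p = 0.0195) and CG10623 (-0.18, adjusted p = 0.0478). Interactions were called for 1 gene above and 2 below 0 on -M, beside 6.93% of all genes (4.21% above and 2.71% below). On -R they were called for 3 above and 2 below 0, beside 21.5% (15.9% above and 5.63% below), and with all library sums set equal for 3 above and 1 below. On -All none was called, beside 0.882% (0.391% above and 0.491% below), and 1 of 9 had an unadjusted p under 0.05, beside 10.1% of all genes. Besides Gnmt, Sardh, Cbs and AhcyL1, the called interactions include Sam-S on -R (-0.71 ± 0.094 SE, adjusted p = 0.000352). In mutants on -R, Sam-S stood at 0.617 of its wDah level (log2 difference -0.70, adjusted p = 0.000437), while Sardh, Cbs, Ahcy and Gnmt stood at 4.20, 3.34, 1.95 and 16.8 times theirs. CG10621 and CG10623 were lower in mutants on that diet, at 0.499 and 0.700 of the wDah level (log2 difference of CG10623 -0.51, adjusted p = 0.00384). AhcyL1 was at 0.862 of it (-0.22, adjusted p = 0.0464), a call lost without any 1 of 5 of the 6 libraries (adjusted p = 0.0681 to 0.142) and with all library sums set equal.

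On -M, Sam-S was lower in mutants than in wDah flies (log2 difference -0.24, adjusted p = 0.00777), and Cbs stood at 0.495 of its wDah level (-1.01, adjusted p = 0.000557). Sardh alone of the 9 was called higher in mutants on -M (1.49, adjusted p = 0.000245). CG10623 was lower (-0.20, adjusted p = 0.0261), but not past the threshold without any 1 of the 3 wDah -M libraries or Gcn2 -M replicate 3 (adjusted p = 0.0623 to 0.0781), or in a single fit of all 24 libraries (-0.20, adjusted p = 0.0687).

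Ahcy and Cbs moved with ovary RNA between replicates of a group. Taken as deviations of the 24 libraries from their group means, the log2 level of Cbs correlated with the mean log2 level of the 7 ovary genes at r = 0.87 and that of Ahcy at r = 0.81. The points share library and scaling. For Sam-S r was 0.54 and for Sardh 0.38, and for the other 5 genes it lay between -0.30 and 0.24. In Gcn2 Yaa replicate 2, Ahcy was above the mean of the other 2 libraries of its group by 0.99 on the log2 scale and Cbs by 0.59, and in Gcn2 -R replicate 1 by 0.70 and 0.44. Without the 5 ovary-rich libraries 5 of the 9 genes were called in mutants on -M, with Sam-S, Ahcy and Cbs added, beside 20.2% of all genes in place of 11.0%. On -R 8 were called, with Ahcy and AhcyL1 added, beside 57.6% of all genes in place of 21.9%. For -M against -R in mutants, where 50.9% of all genes were then called, Ahcy (-0.26, adjusted p = 0.0301) and AhcyL1 (0.23, adjusted p = 0.0336) were added. AhcyL2 was called lower in mutants than in wDah flies on -R (-0.19, adjusted p = 0.0476), beside 62.4% of all genes, and the call of CG10623 between genotypes on -M was lost (-0.22, adjusted p = 0.0847). The interaction on -R was then called for 8 of the 9 genes, beside 50.5% of all genes in place of 21.5%, with Ahcy, CG10621 (-0.89, adjusted p = 0.0149) and CG10623 (-0.36, adjusted p = 0.0071) added. Cbs on -R was as far from Yaa without them (1.25, adjusted p = 2.26e-05 in mutants), as was its interaction on -R (1.90, adjusted p = 3.86e-07). For Sardh the values without them were 0.95 (adjusted p = 0.0442) for the interaction on -M and 1.48 (adjusted p = 0.000178) for that on -R.

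**Figure D5:**
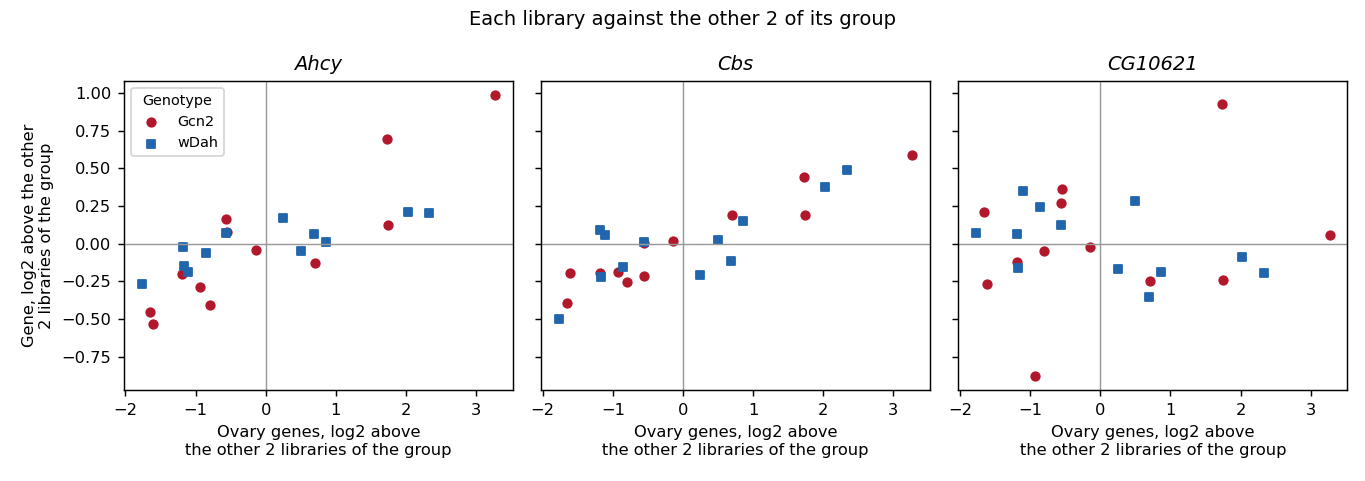
For each library, the log2 level of Ahcy, Cbs and CG10621 above the mean of the other 2 libraries of its group (vertical) against the same quantity for the mean log2 level of 7 ovary genes (horizontal), with Gcn2 mutants as red circles and wDah flies as blue squares. The library furthest above its group in the ovary genes, Gcn2 Yaa replicate 2, is 0.99 above the others for Ahcy and 0.59 for Cbs, and CG10621 shows no such trend.

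Beyond the 9 genes, 45 genes from 5 lists on the same metabolism were tested. On -M, 10 rose and 1 fell in Gcn2 mutants, or 24.4%, beside 11.0% of all genes. In wDah flies 13 rose and 1 fell, or 31.1%, beside 25.7%. On -R, 15 rose and 2 fell in mutants (37.8%, beside 21.9%), and 9 rose and 3 fell in wDah flies (26.7%, beside 22.8%). On -All, 6 rose and 3 fell in mutants (20.0%, beside 14.1%), and 9 rose and 4 fell in wDah flies (28.9%, beside 35.4%). The median log2 difference of the 45 genes lay between -0.16 and 0.29 over these 6 comparisons, and that of all genes between -0.05 and 0.01. Of 6 genes listed for cysteine and glutathione metabolism, 4 rose in mutants and 5 in wDah flies on -M, where 8.55% of all genes were called higher in mutants and 15.3% in wDah flies. On -R 5 rose in mutants and 4 in wDah flies, beside 17.3% and 13.8% of all genes called higher. Gss1 and Gss2, near-identical copies of glutathione synthetase, held the same values in 23 of 24 libraries and 1635 and 1634 counts in Gcn2 -All replicate 1, so their levels are uncertain and they count as 2 of these 6. CG5493, the cysteine dioxygenase, rose by 0.92 (adjusted p = 0.00118) on the log2 scale in mutants and 0.52 (adjusted p = 0.000365) in wDah flies on -M. Eip55E, the cystathionine gamma-lyase that follows Cbs, rose on -R in mutants by 1.21 (adjusted p = 0.00271), and was 0.10 (adjusted p = 0.693) on -M there, against 0.063 (adjusted p = 0.328) on -R and 0.36 (adjusted p = 0.00689) on -M in wDah flies. Gclm, the modifier subunit of glutamate-cysteine ligase, rose on -M by 0.73 (adjusted p = 0.00806) in mutants and 0.31 (adjusted p = 0.00456) in wDah flies, and Gss1 by 0.41 (adjusted p = 0.0164) in mutants and 0.16 (adjusted p = 0.0311) in wDah flies. The interaction on -R was called above 0 for 4 of these 6 genes, Gss1 and Gss2 included, beside 15.9% of all genes, among them Eip55E (1.15, adjusted p = 0.000522) and CG5493 (1.23, adjusted p = 0.00017), as it was for Cbs.

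Of 9 genes of methionine salvage and polyamine synthesis, 5 rose in mutants and 4 in wDah flies on -M, and none fell on -M in either, beside the same 8.55% and 15.3% of all genes called higher. CG11334, the predicted methylthioribose-1-phosphate isomerase of the salvage path, rose by 0.36 (adjusted p = 0.046) in mutants and 0.53 (adjusted p = 0.000238) in wDah flies on -M. Mtap, which splits methylthioadenosine, rose by 0.49 (adjusted p = 0.0186) in mutants and 0.32 (adjusted p = 0.00824) in wDah flies. SamDC, the SAM decarboxylase, rose by 0.44 (adjusted p = 0.0109) in mutants and 0.23 (adjusted p = 0.00643) in wDah flies. Spermidine synthase (SpdS) rose by 0.74 (adjusted p = 0.00287) in mutants on -M and was 0.079 (adjusted p = 0.273) in wDah flies, and on -All it rose by 1.56 (adjusted p = 8.70e-05) in mutants and 1.02 (adjusted p = 6.33e-05) in wDah flies. Its interaction on -M was 0.66 (adjusted p = 0.00284). Mean counts of SpdS on -M were 1499 in mutants and 1422 in wDah flies, with overlap. On Yaa they were 902 in mutants and 1347 in wDah flies, without overlap, so the interaction goes with a lower Yaa level in mutants. The interaction of SpdS was the only one on -M called among these 9 genes, and none was called on -M among the 6 of the cysteine branch.

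Both methionine sulfoxide reductases were tested. MsrA rose by 3.48 (adjusted p = 1.96e-05) in mutants and 0.28 (adjusted p = 0.00356) in wDah flies on -M, and by 1.34 (adjusted p = 0.0016) in mutants and 3.47 (adjusted p = 5.48e-09) in wDah flies on -R. Its interaction was 3.20 (adjusted p = 4.23e-07) on -M and -2.13 (adjusted p = 7.77e-06) on -R, so that it had the opposite signs to Gnmt and Cbs on both diets. SelR, which reduces the other form of methionine sulfoxide, was -0.22 (adjusted p = 0.229) in mutants and -0.077 (adjusted p = 0.11) in wDah flies on -M. Samtor, a sensor of SAM upstream of TORC1, fell on -All, with log2 differences of -0.68 (adjusted p = 0.0355) in mutants and -0.50 (adjusted p = 0.0147) in wDah flies, and CG4743, a predicted SAM carrier of mitochondria, was not called on any diet in either genotype (on -M 0.10, adjusted p = 0.681 in mutants and 0.25, adjusted p = 0.1 in wDah flies). Among 26 SAM-dependent methyltransferases, 0 rose and 1 fell in mutants on -M, or 3.85%, beside 11.0% of all genes called. In wDah flies 3 rose and 1 fell, or 15.4%, beside 25.7% of all genes. With 26 genes such shares are not precise. Coq3, of ubiquinone synthesis, rose on -M in wDah flies by 0.40 (adjusted p = 0.00269) and was 0.14 (adjusted p = 0.489) in mutants. The histone methyltransferase trx fell on -M in wDah flies (-0.15, adjusted p = 0.0224), and was -0.053 (adjusted p = 0.686) in mutants. The arginine methyltransferase Art8 was -0.71 (adjusted p = 0.0427) on -M and 2.24 (adjusted p = 0.000252) on -R in mutants, against 0.30 (adjusted p = 0.206) on -M and -0.57 (adjusted p = 0.0293) on -R in wDah flies. CG10903 was -0.17 (adjusted p = 0.498) on -M in mutants and 0.33 (adjusted p = 0.0256) in wDah flies. On -R in mutants 5 of the 26 rose and 2 fell (26.9%, beside 21.9% of all genes).

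Across the 24 libraries the 9 genes did not move as a block. Their log2 levels correlated most closely for Sam-S with CG10623 and for AhcyL2 with CG10621 (r = 0.76 each) and for Ahcy with Sardh (r = 0.74), and ran most strongly against each other for Sardh with CG10623 (r = -0.69). These points share libraries and scaling. Among all 10994 genes, those with the pattern most like that of Sardh over 24 libraries were Nepl10 (r = 0.978), CG8839 (r = 0.976) and UK114 (r = 0.975). For CG10621 they were CG13325 (r = 0.950), MFS14 (r = 0.949) and Lsp1beta (r = 0.947).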

How the data were processed

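Per the labels and the study's methods, polyA libraries of total RNA were sequenced as single reads of 100 bp, assigned to transcripts by kallisto 0.46.2 and normalized with DESeq2 1.24.0 in R 3.6.3 by the authors, and the build is given as BDGP6. The deposited table of 24 libraries holds normalized counts, a signal that is divided by the size factor of each library and not whole reads. Low values came within 0.05 of a whole read in 84.9% to 88.6% of cases per library, so reads were not recovered and no count test was run. Deposited FPKM values are a constant multiple of the normalized count for each gene and served only to compare levels between genes. Tables of 6 libraries, normalized separately, served as an alternative, and their columns of fold changes and p-values by the authors were not used.

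Here limma 3.58.1 in R 4.3.3 (limma-trend) was fitted to log2(normalized count + 1) of the libraries in each comparison, for genes with a mean of at least 10, and p-values were adjusted over all genes tested by the Benjamini-Hochberg method. A call is an adjusted p under 0.05. Fold changes on this scale understate those of low genes such as Gnmt. Of 15 comparisons, 6 set a diet against Yaa, 2 set -M against -R, 4 set genotypes side by side and 3 are interactions (response of Gcn2 mutants minus that of wDah flies). The script was tested on simulated data. Figures were drawn with matplotlib 3.10.9. Positions and overlaps are from BDGP6.54.

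The 9 genes, the 5 pathway lists and the ovary-rich libraries were chosen with earlier results of these data known. All 9 genes were named in the text, and up to 4 genes per list by the lowest p on -M. Genes most alike are given for those called on -M in both genotypes.

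Whether replicate numbers pair the libraries was checked by the correlation of deviations from group means. Every pair exceeded 0.1 only in Gcn2 -M against Gcn2 Yaa (0.229 to 0.485, with an ovary-rich library as replicate 2 in both groups), where the blocked value stands beside the result it changed. No source used here says that a number marks a shared batch.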

Additional observations from a re-analysis of the deposited data

Results flagged for a closer look

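The response to a deprived diet differed between Gcn2 mutants and wDah flies by the interaction term of limma for 5 of the 9 genes. This term was called for 3 genes on -M, beside 6.93% of all genes, and for 5 on -R, beside 21.5%. On -All it was called for none, beside 0.882%. For Gnmt the response of mutants minus that of wDah flies was -3.25 (adjusted p = 6.90e-05) on -M and 5.15 (adjusted p = 0.000764) on -R, in log2 units. On -M, mutant libraries stayed at 19.3 to 36.2 counts, against 409 to 526 in wDah flies, and on -R they stood at 267 to 794 counts, against 11.9 to 64.9 in wDah flies. For Cbs it was -0.88 (adjusted p = 0.0361) on -M, a call lost in 7 of 19 alternative settings, and 1.85 (adjusted p = 0.000288) on -R. Sardh differed by 1.14 (adjusted p = 0.0139) on -M and 1.68 (adjusted p = 0.00105) on -R, in the same direction on both diets. Sam-S differed by -0.71 (adjusted p = 0.000352) on -R and AhcyL1 by -0.29 (adjusted p = 0.0465) on -R, the latter a call lost in 10 of 19 alternative settings. All 8 values rest on the labels of the -M and -R libraries, whose order was reversed between the genotypes for 84.0% of the genes called in both.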

How the results depend on the processing

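Over the 9 genes and 15 comparisons, no value that was called before or after an alternative changed sign, except 5 values with all library sums set equal. These were Sam-S and CG10623 in Gcn2 mutants on -All (-0.27 and -0.29), AhcyL1 in wDah flies on -R (-0.14) and Sam-S and AhcyL1 in wDah flies on -All (-0.075 and -0.22), each still above the median of all genes by 0.02 to 0.23. Without the filter on low values and in the separate tables of 6 libraries no call changed. With a pseudocount of 10 in place of 1 no call changed either, and 1 value of 135, called in neither fit, changed sign. The number of the 9 genes called in Gcn2 -M against Gcn2 Yaa was 2, beside 11.0% of all genes. It was 5 in a single fit of all 24 libraries (beside 19.0%) and without the 5 ovary-rich libraries (beside 20.2%). With the ovary score as a covariate it was also 5, where 1306 of 10945 genes were called higher and 757 lower. Without those 5 libraries the number was 3 in Gcn2 Yaa against wDah Yaa, against 0, beside 11.8% of all genes in place of 2.69%. The covariate gave 1 there, where 346 of 11006 genes were called higher and 321 lower. For the interaction on -R the number was 8 without those libraries, against 5, beside 50.5% in place of 21.5%. With a replicate block the number was 3 in Gcn2 -R against Gcn2 Yaa, against 6, as Sam-S, CG10621 and CG10623 missed the threshold (adjusted p = 0.0704, 0.0505 and 0.103). There 1167 of 10937 genes were called, against 2400. The block gave 1 in Gcn2 -All against wDah -All (Gnmt, -0.75, adjusted p = 0.0195) and 1 for the interaction on -All (CG10621, 0.62, adjusted p = 0.0284), against 0 each. Of all genes, 0.882% were called for this interaction as reported. In Gcn2 -All against wDah -All the block called 136 genes, against 117. Over the 15 comparisons it left 124 of 135 values on their side of the threshold, with 8 calls lost and 3 gained. The causes of these changes were not tested.

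Leaving out each library in turn, the number of the 9 genes called was 2 to 6 on -M (6 without Gcn2 Yaa replicate 2), 3 to 7 on -R (3 without Gcn2 Yaa replicate 1) and 3 to 5 on -All in Gcn2 mutants against Yaa, and 5, 5 to 6 and 6 to 7 in wDah flies. For -M against -R it was 6 to 8 in mutants and 5 to 6 in wDah flies. For mutants against wDah flies it was 0 to 3 on Yaa (3 without Gcn2 Yaa replicate 2), 5 to 6 on -M, 6 to 9 on -R and 0 on -All, and for the interactions 2 to 3 on -M, 4 to 7 on -R and 0 on -All. The share of all genes called moved too. Without Gcn2 Yaa replicate 2 it was 23.2% on -M in mutants (11.0% as reported), 11.8% between genotypes on Yaa (2.69%) and 34.1% for the interaction on -R (21.5%). Without Gcn2 Yaa replicate 1 it was 10.9% on -R in mutants (21.9%) and 16.9% for the interaction on -R.

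Counts over all genes moved more. Over the alternatives, Gcn2 -M against Yaa gave 613 to 2520 calls (1208 as reported), -R 1167 to 6243 (2400) and -All 865 to 4988 (1549). In wDah flies -M gave 1022 to 3323 (2809), -R 1082 to 4837 (2481) and -All 1907 to 6833 (3878). For -M against -R there were 2420 to 5986 (4003) in mutants and 627 to 1829 (1579) in wDah flies. For mutants against wDah flies there were 96 to 1288 on Yaa (296), 1607 to 2526 on -M (2517) and 40 to 136 on -All (117). For the interactions there were 512 to 1262 on -M (761), 1828 to 5516 on -R (2363) and 56 to 121 on -All (97). Setting all library sums equal made 37.1%, 60.0% and 14.5% of the calls on -M, -R and -All in mutants higher than Yaa, against 77.5%, 79.0% and 75.0%, and 30.7%, 18.1% and 13.8% in wDah flies, against 59.4%, 60.5% and 55.5%. For -M against -R it made 25.6% higher in mutants, against 35.6%, and 75.4% in wDah flies, against 53.2%. For mutants against wDah flies it made 41.2% higher on -M, against 52.8%, and for the interaction on -M 44.5%, against 60.8%. With 3 libraries per group, a gene at the level of Gnmt on -R in wDah flies (11.9 to 64.9 counts) is measured with little precision.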
